A study of Homo sapiens with 12 samples.

Results

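DU145KO is a derivative of DU145, an established human prostate cancer line first grown from a brain metastasis, in which the α2 integrin gene ITGA2 was knocked out with CRISPR-Cas9. Its expressed and silent genes, and the spread of each gene between replicates, are described here from the 4 DU145KO samples of the 12 in the series. The other 8 samples were the same knock-out transfected with α2 cDNA or with an empty vector, and no value of them was used. The DU145KO cells received no second transfection. They had been selected by the GFP of the CRISPR-Cas9 vector and then checked for surface α2, and whether they descend from 1 cell is not stated in the sources used here. Cells that held this vector but still carried α2 were separated by flow cytometry. All 4 replicates were spheroids of 8000 cells kept for 72 hours in serum-free RPMI medium, so none was a monolayer. No sample was of the unedited line. The total count on genes was between 15403946 and 16737269 per replicate.

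Integrins are receptors made of an α and a β subunit that bind cells to the extracellular matrix. The β1 subunit pairs with the largest number of α subunits, and α2β1 is a receptor for collagen. The prostate epithelium holds luminal cells, which depend on androgen and secrete prostate-specific antigen, basal cells, which express p63 and keratins 5 and 14, and rare neuroendocrine cells. DU145 cells are known for growing without androgen.

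The deposited table held 26485 genes with their RPKM, the reads of each gene scaled to its length and to the depth of the sample. A gene was taken as expressed at a mean RPKM of at least 1 over the 4 replicates, and as silent with at most 3 counts in each replicate. Under this rule 12674 genes (47.9%) were expressed and 9579 (36.2%) were silent, among them 6567 with no read in any replicate. The remaining 4255 genes are called low. Of 19803 genes with an mRNA identifier, 59.1% were expressed, and of 6639 with a non-coding RNA identifier, 14.3%.

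ITGA2, which encodes the α2 subunit (chr5:52989352-53094779 in GRCh38), had 2.68, 2.52, 3.20 and 1.97 RPKM in replicates 1 to 4, from 321, 330, 420 and 268 counts. Its mean was 2.59 ± 0.51 RPKM (SD, n = 4), so its transcript was still expressed in the knock-out line. A count per gene does not show the edit itself, and no unedited line was analysed here. ITGB1, which encodes the β1 partner (chr10:32900318-32958230), stood at rank 41 of all genes.

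The most abundant transcripts belonged mainly to the ribosome. Of the 20 genes with the highest mean RPKM, 12 encoded proteins of the cytosolic ribosome, as did 55 of the highest 100. RPS27, a protein of the small ribosomal subunit, was first with 6110, 4901, 6189 and 4673 RPKM (mean 5468 ± 793). The others of the 12 were RPL41, RPL26, RPL7A, RPL4, RPS25, RPL30, RPS16, RPLP0, RPL12, RPS6 and RPL7, between 1268 and 2358 RPKM. FTL and FTH1, the light and heavy chains of the iron store ferritin, had 4789 ± 557 and 2400 ± 324 RPKM. PSAP, the precursor of the lysosomal saposins, had 2838, 2530, 2733 and 2268 RPKM. TMSB10, an actin-binding thymosin, had 1616 ± 195 RPKM. EEF1A1, the elongation factor that brings tRNA to the ribosome, had 2057, 1150, 1613 and 1511 RPKM, with replicate 2 lowest and replicate 1 highest.

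The order within the 20 was mostly not separated by the replicates. Of 19 neighbouring pairs in the order, 17 had overlapping replicate ranges. The first gap lay between FTL, whose lowest replicate was at 4057 RPKM, and PSAP, whose highest was at 2838 RPKM. The second lay between RPL41 and RPL26. The places of MTRNR2L2, MTRNR2L8 and MTRNR2L9, at 4875, 1743 and 1693 RPKM, are uncertain, since these nuclear genes are near copies of the mitochondrial 16S ribosomal RNA and the table held 0 genes encoded by the mitochondrion. Many ribosomal protein genes have processed pseudogenes, and reads that fit both would have been dropped by the unique alignment. RPKM divides by gene length, so short genes stand higher in this order than in an order by counts alone. By CPM, counts scaled to depth alone, PSAP was first and EEF1A1 the second, RPS27 was at rank 18 and RPL41 at rank 33.

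**Figure D1:**
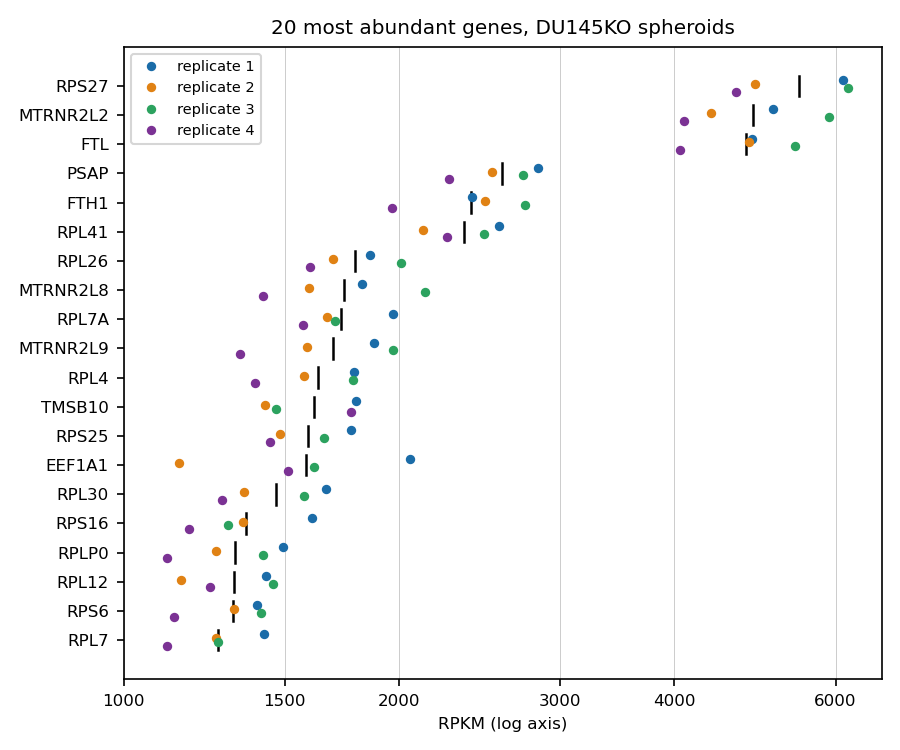
RPKM (log axis) of the 20 genes with the highest mean in DU145KO spheroids, with 1 point per replicate and a black bar at the mean of 4. RPS27, MTRNR2L2 and FTL lie above every replicate of the other 17 genes, each of which overlaps with at least 1 neighbour.

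Promoters of 4 ribosomal protein genes and of EEF1A1, all among the 20 highest, are shown because each carries a feature that most of the highest ribosomal protein genes hold and most of the other highest genes do not. Ribosomal protein genes are known to begin transcription within a run of pyrimidines (C or T), which continues into the start of the mRNA. The sequences are RefSeq genome sequence of build GRCh38.p14, from 45 bases before the annotated start to the first 20 bases of the transcript, 5′ to 3′ on the strand of the gene, with the longest pyrimidine run near the start in capitals.
RPS27, chr1:153990717-153990781, plus strand: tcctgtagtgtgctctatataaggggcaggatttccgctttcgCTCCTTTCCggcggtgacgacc
RPL41, chr12:56116588-56116652, plus strand: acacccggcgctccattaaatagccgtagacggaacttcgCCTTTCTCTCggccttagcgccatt
RPL26, chr17:8383174-8383238, minus strand: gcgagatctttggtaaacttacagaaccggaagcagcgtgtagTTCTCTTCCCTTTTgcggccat
RPS25, chr11:119018324-119018388, minus strand: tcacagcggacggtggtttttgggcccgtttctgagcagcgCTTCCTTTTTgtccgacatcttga
EEF1A1, chr6:73521013-73521077, minus strand: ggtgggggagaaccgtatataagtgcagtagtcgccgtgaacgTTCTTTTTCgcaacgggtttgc

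A promoter entry was found for 15500 protein-coding genes of the table. A run of at least 8 pyrimidines on the strand of the gene, within 20 bases of the start, was present in 48.0% of the 100 highest of these genes and in 16.7% of all. Among the 42 ribosomal protein genes of these 100 the share was 85.7%, and among the other 58 it was 20.7%. Expressed genes as a whole had it in 16.0% and silent genes in 16.6%. The word TATAAA, searched on the strand of the gene between 45 and 20 bases upstream, was in 1.60% of expressed, 4.07% of low and 8.54% of silent genes, against 3.59% of all. In the 100 highest it was in 10%, and in the 58 of these that were not ribosomal in 13.8%, so the share did not follow the level in 1 direction.

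The content of CG dinucleotides moved with the class of expression. In the window of 300 bases around the start, the median number of CG was 27 in expressed genes (quartiles 19 and 35), 13 in low genes and 6 in silent genes (quartiles 2 and 16). The ribosomal protein genes printed above had between 14 and 23, and EEF1A1 had 24. The silent lineage genes printed here, the basal keratin KRT5 and the prostate-specific antigen gene KLK3, had 7 and 2, and neither had TATAAA in the part searched.
KRT5, chr12:52520375-52520439, minus strand: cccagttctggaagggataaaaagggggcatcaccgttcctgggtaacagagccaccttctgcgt
KLK3, chr19:50854870-50854934, plus strand: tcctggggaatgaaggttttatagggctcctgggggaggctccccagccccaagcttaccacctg
These shares describe the letters of the promoter windows and were not tested against the levels.

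Of 533 genes in 26 lists on lineage, adhesion, cytokines and receptors, 238 (44.7%) were expressed and 175 (32.8%) were silent. Over all genes these shares were 47.9% and 36.2%, and over genes with an mRNA identifier, the nearer background for these lists, 59.1% and 25.1%. By class, lineage genes were expressed in 47 of 82 cases (57.3%), receptors in 121 of 239 (50.6%), adhesion molecules in 42 of 89 (47.2%) and cytokines in 30 of 108 (27.8%). Markers of other cell types were expressed in 4 of 32 cases (12.5%) and silent in 21 (65.6%).

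**Figure D2:**
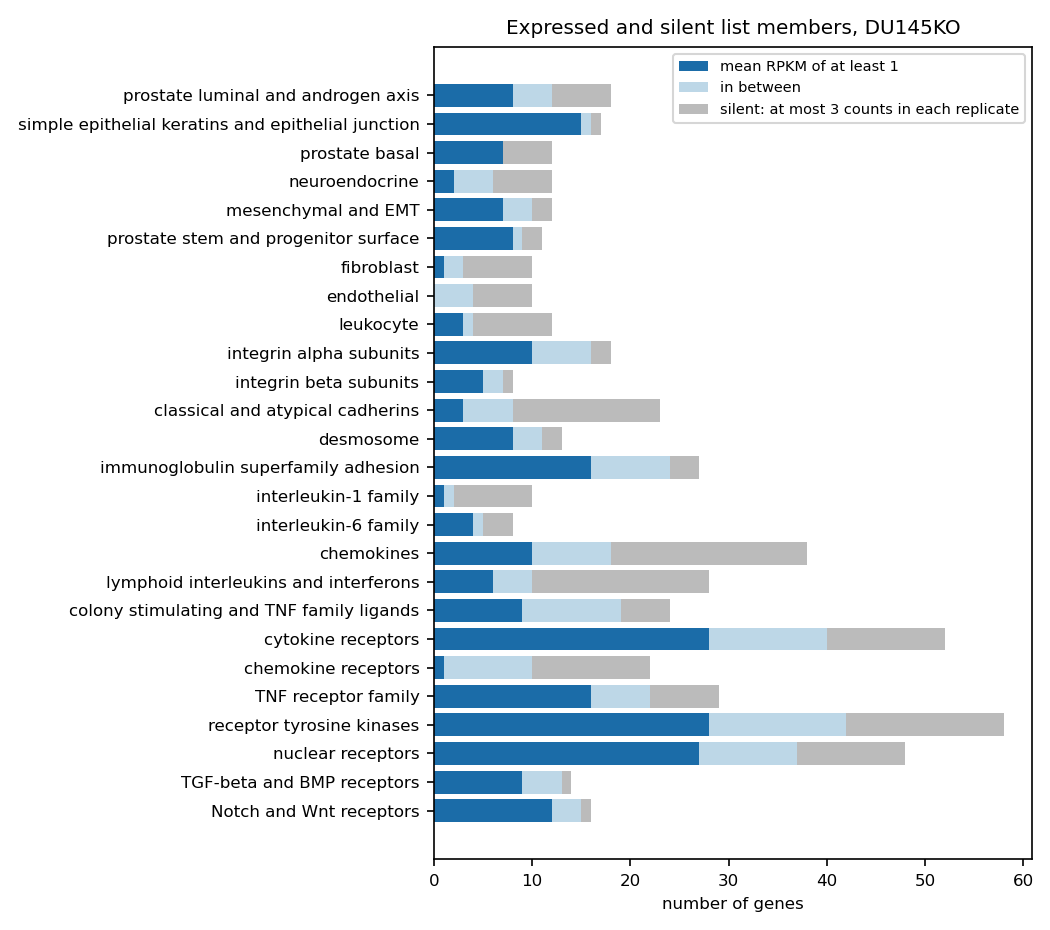
Number of genes per list that were expressed (mean RPKM of at least 1), low or silent (at most 3 counts in each of the 4 replicates) in DU145KO spheroids. The keratin and junction list is almost wholly expressed, while cadherins, chemokines, chemokine receptors and interleukin-1 genes are mostly low or silent.

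Genes of simple epithelium were high. Of 17 keratin and junction genes, 15 were expressed and 1 was silent. KRT7, a keratin of simple ducts, had 394, 329, 498 and 269 RPKM (mean 373 ± 97.8), the widest range among the keratins listed. KRT18 and KRT8, which pair in the filaments of luminal cells, had 251 ± 33.9 and 227 ± 52.3 RPKM, and the ranges of KRT7, KRT18 and KRT8 overlapped. KRT19 lay below all of these, at 139 ± 11.5 RPKM. EPCAM, an epithelial adhesion molecule, had 91.7 RPKM, and the tight junction claudins CLDN4 and CLDN3 had 90.3 and 69.6 RPKM. ELF3, an epithelial transcription factor, had 56.4 RPKM. GRHL2, another factor of epithelial cells, had 1, 3, 1 and 4 counts, and OVOL1 was silent.

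The kallikrein genes listed, KLK2, KLK3 and KLK4, were silent. Of the 18 luminal and androgen axis genes, 8 were expressed and 6 were silent. FOXA1, a pioneer factor for steroid receptors, had 42.3, 38.1, 30.6 and 50.005 RPKM. FKBP5, a co-chaperone of steroid receptors, had 21.0 ± 3.92 RPKM. STEAP2, a metalloreductase, and PSCA, a surface antigen, had 4.57 and 3.96 RPKM. KLK2, KLK3, HOXB13 and FOLH1 had no count in any replicate, and KLK4 had at most 2. TMPRSS2, a protease gene under androgen control, had 13, 2, 0 and 7 counts.

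In the basal list, adhesion genes were expressed and the defining keratins 5 and 14 were not. LAMB3, a laminin chain, had 65.7 ± 9.45 RPKM. CDH3, P-cadherin, had 54.3, 39.9, 38.2 and 46.3 RPKM, and DST, a linker of hemidesmosomes, had 19.7 RPKM. KRT15 was the only basal keratin expressed among those listed, with 14.5, 10.4, 11.97 and 12.8 RPKM. KRT5 had no count in any replicate, KRT14 had 0, 0, 1 and 0 counts, and TP63, the gene of p63, had 0, 1, 2 and 2. KRT6A and KRT17 had at most 1 count. Of the 12 basal genes 7 were expressed and 5 were silent.

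Of 12 neuroendocrine genes, 2 were expressed. ENO2, an enolase also used for glycolysis elsewhere, had 19.5 ± 3.09 RPKM, and DLL3, a Notch ligand, had 1.51 RPKM. The granule protein genes CHGA and CHGB had at most 1 count in each replicate, and the transcription factors NEUROD1 and INSM1 had none. SYP, synaptophysin, had 0.4999 ± 0.2704 RPKM.

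Mesenchymal genes included 1 at the level of the keratins. VIM, vimentin, had 256, 258, 209 and 257 RPKM, which was 8.93 ± 0.939 times the level of CDH1, E-cadherin, in the same replicate. CDH1 had 27.5, 26.0, 24.0 and 33.2 RPKM. FN1, fibronectin, had 8.09 ± 1.18 RPKM, S100A4 8.54 and TWIST2 5.19 RPKM. Of the repressors of CDH1, ZEB1 had 3.12 ± 0.635 RPKM and SNAI1 1.92 RPKM, while SNAI2 and ZEB2 were low at 0.762 and 0.0502 RPKM. CDH2, N-cadherin, and TWIST1 had no count in any replicate. Both epithelial and mesenchymal genes were thus expressed in the same spheroids, and bulk RNA does not show whether the same cells held both.

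Of 11 surface and progenitor genes, 8 were expressed. CD24 had 204 ± 25.7 RPKM, and the adhesion molecule ALCAM had 52.6 RPKM. CD44, a hyaluronan receptor, had 32.3, 30.03, 26.9 and 21.3 RPKM, and no replicate overlapped with the ranges of its neighbours ALCAM and ITGA6. PROM1, the gene of CD133, had 2, 2, 0 and 1 counts, and the Wnt-related receptor LGR5 had at most 2.

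**Figure D3:**
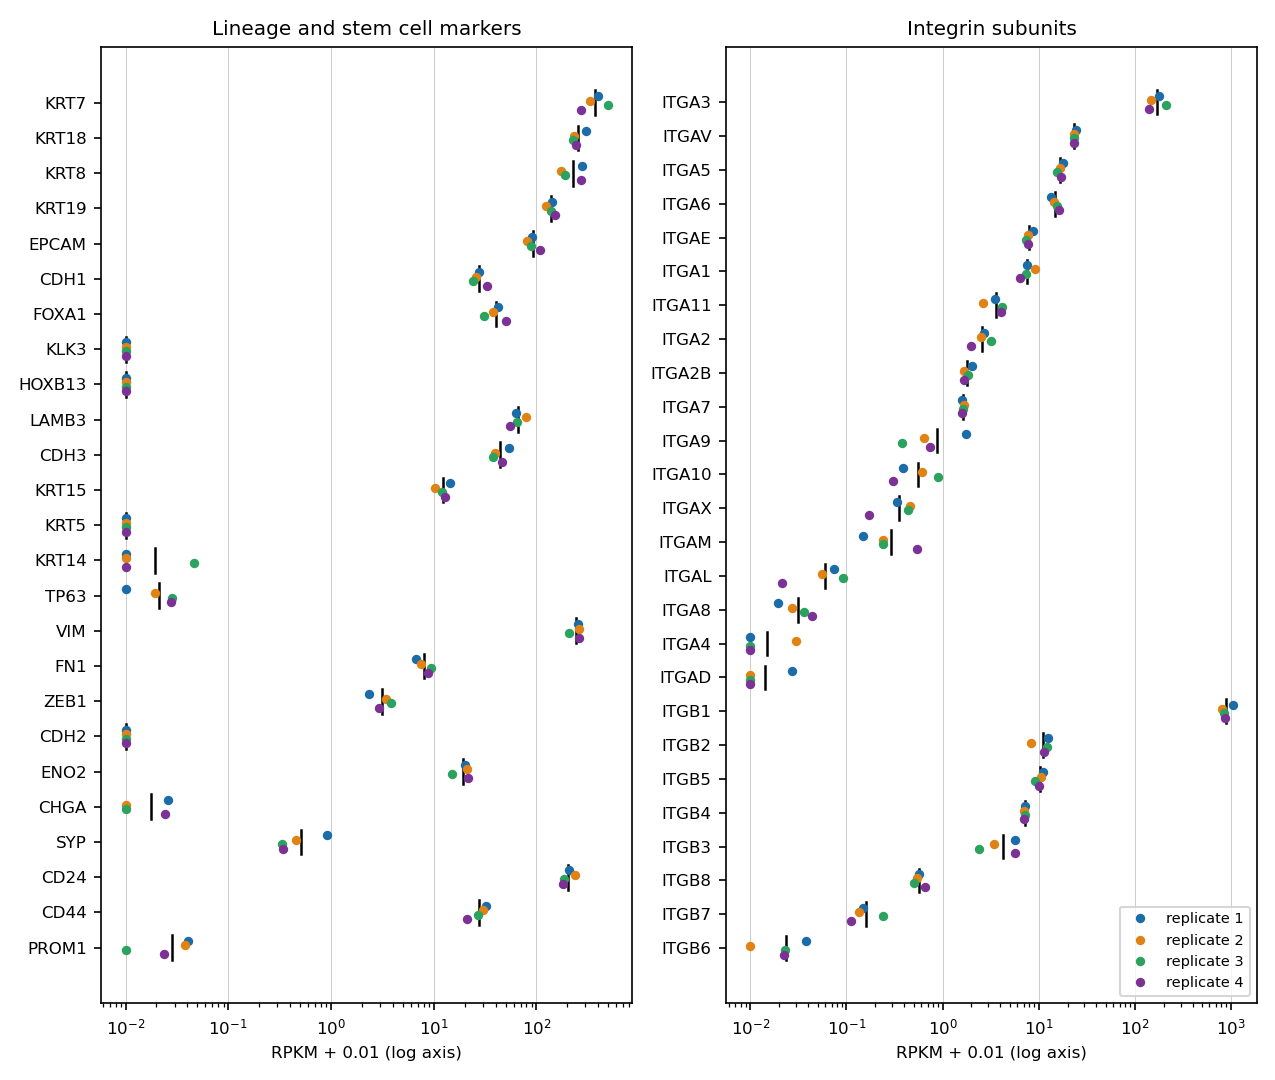
RPKM + 0.01 (log axis) of lineage and stem cell markers on the left and of all integrin subunits in the lists on the right, with 1 point per replicate and a black bar at the mean of 4. Genes at 0.01 have no count, among them KLK3, HOXB13, KRT5 and CDH2, while KRT7, KRT18, KRT8 and VIM exceed 150 RPKM in every replicate.

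Of 32 markers of other cell types 4 were expressed, COL1A1 and the leukocyte genes CD68, CD14 and LYZ. The summed level of the 10 fibroblast genes was between 1.62 and 2.17 RPKM per replicate, nearly all from COL1A1, with no count of THY1 or LUM. The summed level of the 10 endothelial genes was between 1.10 and 1.304 RPKM. CDH5 had 21, 19, 21 and 21 counts and VWF was silent. The summed level of the 12 leukocyte genes was between 27.5 and 46.9 RPKM, of which CD68, a lysosomal glycoprotein gene, held 35.3 ± 7.59. CD14 and LYZ had 1.22 and 1.049 RPKM. PTPRC, the gene of the leukocyte antigen CD45, had no count in any replicate. CD79A, which encodes a chain of the B cell receptor complex, is on no list and was named after its values were seen. It had 211, 73.7, 132 and 197 RPKM, while its partner CD79B and the B cell gene MS4A1 had no count in any replicate.

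Among the integrins, β1 with α3 predominated. Of 18 α subunits 10 were expressed, and of 8 β subunits 5. ITGB1 had 892 ± 108 RPKM and made up 96.4% ± 0.193 of the summed β subunit RPKM. ITGB2, the leukocyte β2 subunit, came next with 12.6, 8.30, 12.3 and 11.2 RPKM, and ITGB1 was 81.5 ± 11.99 times as high. ITGB5 and ITGB4, which pair with αv and α6, had 10.2 and 7.14 ± 0.146 RPKM. ITGB3 had 5.66, 3.41, 2.37 and 5.66 RPKM, with the widest spread among expressed β subunits, and ITGB6 was silent.

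ITGA3, whose product binds laminins (chr17:50056110-50090481), had 179, 149, 211 and 142 RPKM and held 67.0% ± 3.85 of the summed α subunit RPKM. Its lowest replicate lay above every replicate of the other α subunits. ITGAV, the αv subunit of receptors for RGD-containing ligands, had 24.2, 23.4, 23.3 and 23.3 RPKM, the narrowest spread of the expressed subunits, with a coefficient of variation (CV, the SD over the mean) of 1.91%. ITGA5, the fibronectin receptor subunit, had 16.8 ± 0.939 RPKM, and ITGA6, for laminin, 14.9 ± 1.26, with overlapping ranges. ITGA4 and ITGAD were silent.

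The collagen-binding α subunits were α1, α2, α10 and α11. ITGA1 had 7.54, 9.13, 7.41 and 6.35 RPKM, and ITGA11 had 3.52, 2.64, 4.14 and 4.09. ITGA2 made up 1.02% ± 0.102 of the summed α RPKM, and its range overlapped with that of ITGA11 but not with that of ITGA1. ITGA10 was low at 0.544 ± 0.268 RPKM. The collagen receptor kinases DDR1 and DDR2 had 6.42 ± 0.632 and 0.906 ± 0.116 RPKM. The 12 α subunits that can pair with β1 summed to between 214 and 283 RPKM, and ITGB1 was 3.71 ± 0.516 times this sum, between 3.01 and 4.17 in the 4 replicates.

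Of 23 cadherins, 3 were expressed and 15 were silent, and these 3 held 98.3% of the summed cadherin RPKM. CDH3 exceeded CDH1 in every replicate, by 1.62 ± 0.247 times. CDH24, an atypical cadherin, had 19.1 ± 1.496 RPKM. Of 13 desmosome genes, 8 were expressed. DSG2, the desmoglein of simple epithelia, had 85.4, 88.1, 92.3 and 85.0 RPKM, JUP, plakoglobin, had 50.3 ± 8.68, and DSP, desmoplakin, had 16.5 RPKM. DSG1, the desmoglein of stratified epithelium, had no count in any replicate.

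Of 27 immunoglobulin superfamily genes, 16 were expressed. BCAM, a laminin receptor, and ICAM1, a ligand of leukocyte integrins, had 126 ± 13.1 and 123 ± 16.7 RPKM, with overlapping ranges. F11R, the junctional adhesion molecule A, had 103 RPKM. CEACAM6 had 12.8, 14.1, 11.3 and 33.0 RPKM, with replicate 4 above the other 3. VCAM1 was low, with 0, 5, 7 and 8 counts.

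The expressed cytokine genes, 27.8% of those listed, came from all of the families searched. LIF, a ligand of LIFR, had 18.5, 17.8, 22.7 and 20.4 RPKM, and CLCF1 had 17.5 ± 3.17, with overlapping ranges. IL6 had 5.81, 4.33, 3.42 and 5.49 RPKM. OSM was silent. Of the 10 interleukin-1 family genes 8 were silent, among them IL1A and IL1B, and IL18 alone was expressed, at 9.67 ± 2.13 RPKM. Of 28 lymphoid interleukins and interferons 18 were silent, IL2, IL4 and IFNG among them, and IL32 was highest at 7.22 ± 1.75 RPKM.

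Of 38 chemokines, 10 were expressed and 20 were silent. CXCL16, made as a membrane-bound chemokine, had 24.3, 23.3, 27.1 and 24.7 RPKM. The neutrophil-attracting CXCL1 had 13.98, 15.9, 14.99 and 30.6 RPKM, CXCL2 15.3, 11.4, 18.3 and 27.3, and CXCL3 5.71, 9.23, 13.1 and 21.5, each highest in replicate 4. CXCL8, of the same group, had 11.9 ± 2.14 RPKM. CCL2 and CXCL12 had no count in any replicate. The median CV of the 10 expressed chemokines was 39.6%, against 10.2% over all expressed genes, which are not matched to them in level. CCL20, CCL5 and CCL28, at 2.02, 2.73 and 3.01 RPKM, lay between 2 and 5 RPKM, where the median over expressed genes was 13.8%. Their CVs were 77.0%, 42.7% and 12.7%, so CCL28 lay below that median. The error of counting reads alone would give CVs of 18.8%, 9.24% and 6.96%.

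Of 24 CSF and TNF family ligands, 9 were expressed. CSF1, the macrophage growth factor, had 52.3, 39.7, 47.0 and 43.3 RPKM. TNFSF10, the gene of the death ligand TRAIL, had 52.8, 27.3, 14.9 and 30.3 RPKM, more than 3 times as high in replicate 1 as in replicate 3. KITLG, stem cell factor, had 24.1 ± 5.62 RPKM, and CD70 had 7.61 ± 1.28. TNF had 1, 5, 3 and 2 counts.

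Set beside their receptors, these ligands fell into pairs with both sides expressed and pairs with the ligand only. KIT, the receptor of KITLG, had 6.28, 4.86, 3.17 and 6.05 RPKM. The TRAIL receptors TNFRSF10B and TNFRSF10A had 48.6 ± 6.82 and 7.02 ± 0.882 RPKM. LIFR had 10.7 ± 1.22 RPKM. In contrast CSF1R, the receptor of CSF1, had 1, 0, 1 and 0 counts, and CD27, the receptor of CD70, was low at 0.107 ± 0.104 RPKM. CXCR1 and CXCR2, the receptors of CXCL8, had at most 1 and at most 4 counts in a replicate.

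Of 52 cytokine receptors 28 were expressed. OSMR, the oncostatin M receptor subunit, had 123, 115, 95.1 and 92.4 RPKM, although OSM itself was silent. IL6ST, the signalling subunit gp130 shared by the IL-6 family, had 74.5 ± 9.62 RPKM and was 2.80 ± 0.0372 times as high as IL6R in the same replicate. IL6R had 26.6 ± 3.69 RPKM and IL27RA 30.7. Both interferon receptor pairs were expressed, with IFNGR1 at 25.9 and IFNAR2 at 22.5 RPKM. Of 22 chemokine receptors only CXCR4 was expressed, with 9.20, 8.03, 6.92 and 7.58 RPKM, while its ligand CXCL12 had no count in any replicate.

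Of 29 TNF receptor genes 16 were expressed. TNFRSF1A, the main receptor of TNF, had 88.3, 82.6, 87.3 and 91.3 RPKM, and LTBR, the lymphotoxin β receptor, had 59.4 RPKM. Of 58 receptor tyrosine kinases 28 were expressed. AXL had 62.6, 70.1, 78.6 and 54.9 RPKM, and ERBB2 had 59.1, 45.4, 39.4 and 51.4, with overlapping ranges. AXL was 3.04 ± 0.0617 times as high as EGFR, which had 21.9 ± 3.27 RPKM. RYK, a Wnt co-receptor, had 33.2 ± 0.604 RPKM, and the ephrin receptor EPHB4 had 21.9, 21.9, 21.6 and 27.3. MET, the receptor of hepatocyte growth factor, had 13.4 ± 2.65 RPKM, and ERBB3 had 12.4. ERBB4 had 1, 0, 1 and 5 counts.

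Of 48 nuclear receptors 27 were expressed. NR1H2, the liver X receptor β, had 49.1, 36.7, 40.5 and 36.7 RPKM. NR3C1, the glucocorticoid receptor, had 34.6 ± 1.96 RPKM, and the fatty acid sensor PPARD had 26.5. The oestrogen and progesterone receptor genes ESR1 and PGR were low, at 0.0560 and 0.00817 RPKM. Of 14 receptors of the TGF-β and BMP families 9 were expressed, with TGFBR2 highest at 47.6 ± 6.35 RPKM and a median CV of 6.45%. Of 16 Notch and Wnt receptors 12 were expressed, led by FZD6 at 35.6 ± 2.17 RPKM and LRP5 at 27.0 ± 1.85.

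The median spread between replicates exceeded counting error at every level. Over the 12674 expressed genes the median CV was 10.2% (quartiles 6.84% and 15.7%), while counting error alone would give 4.12%. The median was 19.3% at 1 to 2 RPKM, where counting error gives 12.5%, and 8.35% at 10 to 50 RPKM, where it gives 3.09%. At 100 RPKM and above the median was 9.76%, against 1.31% from counting. A CV above 30% was found in 848 expressed genes (6.69%). The replicates correlated at Pearson's r of 0.975 to 0.986 over log2(RPKM + 0.1) of expressed genes, which are not independent of each other, and no pair was close enough in its counts to be 1 library deposited more than once. The fewest genes over 2-fold apart were 118, between replicates 2 and 3, and the most were 386, between replicates 3 and 4.

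**Figure D4:**
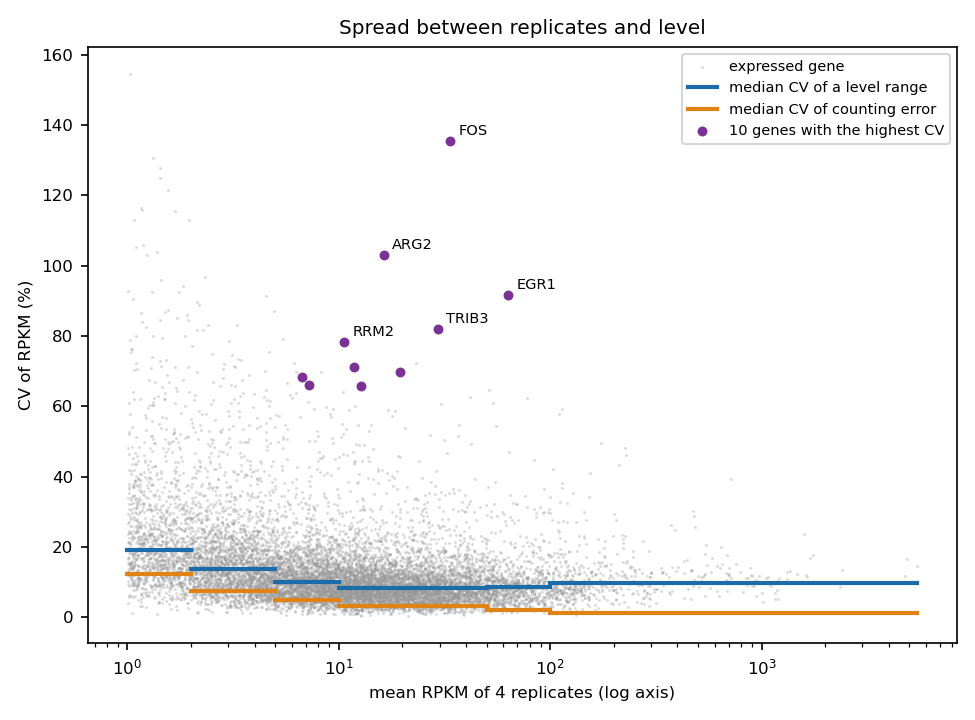
CV of RPKM over 4 replicates against mean RPKM (log axis), with 1 point per expressed gene. The blue steps are the median CV of each level range and the orange steps the median CV of counting error, and FOS, at 135%, stands highest of the 10 purple genes.

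Genes with at least 5 RPKM and a mean count of at least 200, where counting error is small, numbered 8532, and 191 of them had a CV above 30%. The 10 highest were FOS, ARG2, EGR1, TRIB3, RRM2, CHAC1, NUPR1, MYBL2, BIRC5 and STC2. FOS, a transcription factor gene induced within minutes of a stimulus, had 102, 11.3, 7.19 and 14.3 RPKM. EGR1, another such gene, had 149.9, 38.2, 27.3 and 37.6 RPKM. In both genes replicate 1 lay apart from the others, and without it the means of 33.6 and 63.2 RPKM became 10.9 and 34.4.

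Replicate 3 stood highest for the next set. ARG2, a mitochondrial arginase, had 8.55, 13.3, 40.6 and 2.70 RPKM. TRIB3, a pseudokinase induced when amino acids are short, had 16.9, 22.0, 65.3 and 13.6 RPKM. CHAC1, which degrades glutathione, had 6.78, 9.44, 24.3 and 6.73 RPKM. NUPR1, a stress-induced chromatin protein, and STC2, a secreted glycoprotein, were also highest there, at 38.8 and 24.8 RPKM. Without replicate 3 the means of ARG2, TRIB3 and CHAC1 became 8.20, 17.5 and 7.65 RPKM.

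Replicate 4 stood highest for genes of division. RRM2, a subunit of the enzyme that makes deoxynucleotides, had 10.6, 6.18, 3.39 and 22.2 RPKM, and without replicate 4 its mean became 6.71. MYBL2, a transcription factor of dividing cells, had 6.4996, 4.41, 2.70 and 13.1 RPKM. BIRC5, survivin, had 6.05, 5.56, 3.15 and 14.1 RPKM. In all 3 genes replicate 3 was lowest.

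3 lists of genes related to these were written after their values were seen, and no test was made on them. They hold FOS, EGR1, TRIB3, CHAC1, NUPR1, STC2, RRM2 and BIRC5 themselves, so their counts cannot show how far the pattern goes. Of 20 immediate early genes 18 were expressed, with 12 of them highest in replicate 1 and a median level there of 1.41 times the mean of the 4 replicates. JUNB had 102, 36.2, 34.1 and 41.7 RPKM and DUSP1, a phosphatase of MAP kinases, 22.9, 9.06, 10.3 and 10.5. ATF3, KLF6 and MYC were lowest in replicate 1. ATF3, a stress-responsive factor, had 7.66, 11.3, 16.0 and 20.2 RPKM, highest in replicate 4. FOSB, at a mean of 1.56 RPKM, became 0.629 without replicate 1 and was then no longer expressed by the rule.

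Of 20 genes of amino acid and endoplasmic reticulum stress, all expressed, 18 were highest in replicate 3, with a median of 1.70 times the mean. ASNS, asparagine synthetase, had 30.6, 50.6, 99.0 and 26.2 RPKM, and DDIT3, the stress factor CHOP, had 15.2, 30.8, 56.2 and 19.4. The exceptions were the endoplasmic reticulum genes HSPA5 and XBP1, at 346 and 79.5 RPKM in replicate 3 against means of 355 and 110. All 20 genes of DNA replication and mitosis were highest in replicate 4 and lowest in replicate 3. MKI67 had 4.29, 5.23, 2.86 and 9.91 RPKM and the thymidylate synthase gene TYMS 39.0, 29.4, 16.6 and 61.1. Among all expressed genes the highest value fell in replicates 1 to 4 in 30.4%, 19%, 24.9% and 25.7% of cases. The lowest value fell there in 24.7%, 20.3%, 28.8% and 26.3%. The part of culture, handling or cell number in these differences was not tested.

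**Figure D5:**
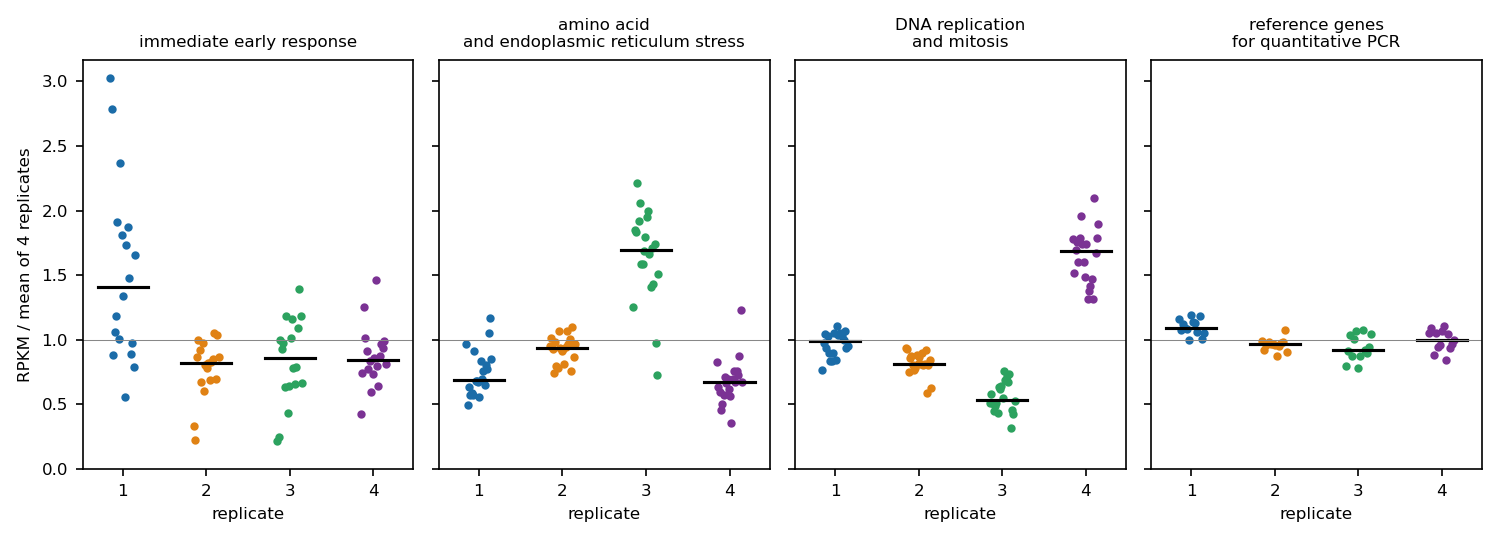
RPKM of each expressed gene divided by its mean over the 4 replicates, for 4 gene lists chosen after the values were seen, with black bars at the medians. Replicate 1 is high for immediate early genes, replicate 3 for stress genes and replicate 4 for replication genes, while the 13 reference genes stay near 1.

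The promoters of FOS and JUNB are printed as examples of genes set apart in replicate 1, with the word TATAAA in capitals, which was in 1.60% of expressed genes. Of the 16 immediate early genes with a promoter entry, 4 held it, FOS, FOSB, JUNB and DUSP1. It was in 2 of 9 reference genes for quantitative PCR, in 2 of 17 stress genes and in 0 of 17 genes of DNA replication and mitosis. Both have many CG dinucleotides, 30 and 29 in their windows.
FOS, chr14:75278783-75278847, plus strand: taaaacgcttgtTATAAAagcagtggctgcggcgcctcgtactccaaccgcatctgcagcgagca
JUNB, chr19:12791441-12791505, plus strand: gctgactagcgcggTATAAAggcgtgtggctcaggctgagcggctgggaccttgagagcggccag

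The 10 genes with the lowest CV all varied by less than counting error, as did 543 (6.36%) of the 8532, so their order cannot be read. They were TUBGCP2, LOC150776, CNPPD1, NECAP1, DDX27, HSPD1, ZMPSTE24, HABP4, VSIG10 and AGK. HSPD1, a mitochondrial chaperonin, had 133.8, 132.9, 131.4 and 132.3 RPKM. Genes commonly used as references in quantitative PCR had a CV from 5.06% for GUSB to 17.2% for PGK1. Their median CV was 9.67%, against 10.2% over all expressed genes, which are not matched to them in level. These reference genes lay between 10.4 and 1323 RPKM. The medians over expressed genes were 8.35% at 10 to 50 RPKM, 8.52% at 50 to 100 and 9.76% from 100. GAPDH had 879, 751, 607 and 798 RPKM, and 10 of the 13 reference genes were highest in replicate 1.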

How the data were processed

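RNA from spheroids was sequenced as stranded mRNA libraries. Per the labels and the methods of the study, the authors converted base calls with bcl2fastq 1.8.4, aligned reads to hg38 with TopHat2 2.1.0 and counted uniquely aligned reads per RefSeq gene with Subread 1.5.0. The authors deposited these raw counts and RPKM values, normalized by TMM and gene length. Whether counting used the strand is not given in the sources used here, so overlapping and antisense genes are uncertain.

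Samples were grouped by their labels, which call them biological replicates. The RPKM of the 4 DU145KO samples was averaged with its SD, and the counts gave depth, the floor of 3 counts and the counting CV (100 over the root of the mean count). Without molecular identifiers, floors describe the error of counting alone. There is no contrast, so no p-value is given. Named genes are ITGA2, ITGB1, the 20 most abundant, up to 5 leading and the silent or lowest defining members of each list, the 10 highest and lowest CV (mean RPKM of at least 5, mean count of at least 200) and genes with an outlying replicate. Further list members named for a ligand, receptor or family, and the genes of the 4 lists on replicate differences, were chosen after their values were seen. A few genes that the naming rule covers are not reported here. The members and lists were chosen with earlier results of these data known.

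Python 3.11.15 with pandas 2.3.3 and, for alternative scalings, edgeR 4.0.16 and DESeq2 1.42.0 in R 4.3.3 were used, and scripts were tested on simulated counts. There edgeR's genewise variation, which is shrunk towards a trend, understated single noisy genes, so it was used as a median only. Alternatives were other thresholds, TPM, CPM, medians, other scalings and pseudocounts, and each replicate left out.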

Additional observations from a re-analysis of the deposited data

Results flagged for a closer look

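In 13 of 206 genes examined, 1 replicate lay apart from the other 3 by more than Dixon's 95% critical value for 4 samples, where the gap to the nearest replicate is divided by the whole range. Chance gives about 1 in 20, or 10.3 of 206, and among all expressed genes 694 (5.48%) passed. Replicate 1 was the one apart in 7 genes, all high. These were FOS at 102 RPKM against 7.19 to 14.3 (gap share 0.925), EGR1 at 149.9 against 27.3 to 38.2 (0.911) and JUNB at 102 against 34.1 to 41.7 (0.890). They also included IER2 at 67.0 against 23.7 to 29.9 (0.857), DUSP1 at 22.9 against 9.06 to 10.5 (0.894), SOCS3 at 20.9 against 7.14 to 9.17 (0.852) and ZFP36 at 103.5 against 55.4 to 61.4 (0.875). Replicate 3 was apart in 4 genes. It was high for TRIB3 at 65.3 RPKM against 13.6 to 22.0 (0.837), CHAC1 at 24.3 against 6.73 to 9.44 (0.846) and EIF4EBP1 at 73.8 against 30.7 to 32.9 (0.949), and low for VIM at 209 against 256 to 258 (0.962). Replicate 4 was high for CXCL1 at 30.6 RPKM against 13.98 to 15.9 (0.882) and for EPHB4 at 27.3 against 21.6 to 21.9 (0.938). FOS, EGR1, TRIB3 and CHAC1 were examined because they were picked for the highest CV. JUNB, IER2, DUSP1, SOCS3, ZFP36 and EIF4EBP1 entered through lists written after their values were seen. The count of 13 therefore cannot be set against the number given by chance, and the cause was not tested.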

How the results depend on the processing

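The number of expressed genes, 12674, ranged from 11405 to 15079 over the other thresholds and from 12636 to 12694 without 1 replicate. The 238 expressed list members ranged from 198 to 299 and from 235 to 239. By CPM without gene length, 8 of the 20 most abundant genes were shared, and the highest 10, 100 and 1000 genes took 4.002%, 14.6% and 44.9% of the total, against 7.80%, 26.6% and 56.0% of RPKM. This follows from leaving out the length. The median CV of 10.2% was 8.49% at 10 RPKM and above, 15.7% with no filter, 8.98% from log2(RPKM + 1) and 12.3% by edgeR, and between 9.20% and 10.5% without 1 replicate. Of 130 results per list 15 moved with the threshold or unit, for example from 0 to 4 endothelial genes with more than 3 counts as the rule, and of 104 without 1 replicate 1 moved, since CCR10 joined the expressed chemokine receptors without replicate 3. Leaving out a replicate for the means of named genes, and their TPM, were alternatives chosen after seeing the data. These means moved over 1.5 times without 1 replicate in 7 genes, FOS (10.9 without replicate 1), EGR1 (34.4), FOSB (0.629), ARG2 (8.20 without replicate 3), TRIB3 (17.5), CHAC1 (7.65) and RRM2 (6.71 without replicate 4). No paired analysis was possible because only 1 group was described, so no groups were compared.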

Other observations

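Among the 947 expressed non-coding RNA genes, 6 reached 100 RPKM, and hosts of small nucleolar RNAs led. GAS5 had 411, 597, 590 and 316 RPKM (mean 478 ± 138, SD, n = 4), SNHG6 had 238 ± 34.97 RPKM, ZFAS1 198 ± 45.5 and SNHG5 169 ± 26.4. Also above 100 RPKM were MIR5047, at 164 ± 20.4, and LINC00657, at 130 ± 10.4. MIR5047 reached this level from a mean of only 269.5 counts, against 11322 for LINC00657, since RPKM divides by gene length. GAS5 was lowest in replicate 4 and ZFAS1 too, at 135 RPKM against 194 to 238 in the others. The nuclear RNAs NEAT1 and MALAT1, which organise paraspeckles and mark speckles, had 99.8 ± 34.1 and 93.3 ± 20.2 RPKM. Libraries were made from polyadenylated RNA, so RNA without a tail may be missed or measured only in part.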
